A study of Mus musculus with 6 samples.

Results

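Chemokines are small secreted proteins that draw leukocytes along a gradient by binding G protein-coupled receptors on their surface. The CXC ligands of the group that act on the receptor Cxcr2 mainly attract neutrophils, the CC ligands such as Ccl2 mainly attract monocytes and T cells, and Cx3cl1 and Cxcl16 are made as membrane-anchored ligands that proteases release. In the kidney glomerulus, mesangial cells are a known source of several of them, and many of their genes are switched on by the transcription factor NF-kB. The genes described here are 10 chemokine ligands, Cxcl15, Cxcl12, Cxcl1, Cxcl5, Cxcl10, Cxcl16, Ccl2, Ccl7, Ccl5 and Cx3cl1, taken from the 19730 rows of the expression table by their exact symbol. Each of the 10 matched 1 row.

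Expression was measured by RNA-Seq in cells labelled as mouse primary mesangial cells, which hold the glomerular capillaries together. The 3 TGF-β1 libraries came from cells given transforming growth factor beta 1, a driver of scarring, at 10 ng/ml for 72 h, and the 3 Control libraries from cells without it. All cells were kept in medium with high glucose (25.5 mM) and 20% fetal bovine serum and were used at passage 3 to 6, so these conditions were shared by both groups. The strain, age and sex of the mice and any vehicle given to the Control cells are not given in the sources used here. The RNA samples were taken in triplicate, and the sources used here do not say for RNA-Seq whether these were separate cultures, so the p-values measure only the spread between these libraries.

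The values are FPKM, the fragments of a transcript per kilobase of its length, scaled to the mapped fragments of the library, which allows levels of different genes to be compared. The steps between the lowest values corresponded to 9.98 to 10.92 M (mega) fragments per library, so an FPKM of 1 in a 2 kb transcript rested on 18.0 to 19.7 fragments. The deviations of the replicate 2 libraries from their group means were weakly correlated between the groups (0.232), and results were also computed without these libraries. Of the mesangial and mural cell markers, Acta2 (smooth muscle actin) was at 997 ± 89.7 FPKM in Control and 3887 ± 348 FPKM with TGF-β1 (SD, n = 3), and Pdgfrb was at 37.5 ± 4.82 and 29.2 ± 0.751 FPKM. Gata3 was at 1.76 ± 0.882 and 1.03 ± 0.211 FPKM, and Rgs5 was at 0.0864 ± 0.0503 and 0.250 ± 0.0353 FPKM. Itga8, Thy1, Des and Pdgfra, which also mark these cells, had group means of at most 0.271 FPKM. Itga8 was listed at 0 throughout the TGF-β1 group.

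Of the 10 chemokines, 5 fell with TGF-β1 above the filter on low values, 1 fell below it, 2 rose and 2 were not called. A row was tested when its mean over the 6 libraries was at least 1 FPKM, and it was called when its limma adjusted p (Benjamini-Hochberg over all rows tested) was under 0.05. Changes are differences of log2(FPKM + 1), TGF-β1 minus Control, a scale that understates the change of low genes. Of the 9 chemokines that passed the filter, 7 were called, while 48.1% of all 11898 rows tested were called. The 5 that fell can be read against 23.6% of all rows that fell, and the 2 that rose against 24.5% that rose, which is close to the background. The groups did not overlap in 7 of the 9 chemokines and in 59.4% of all rows tested. The median change of the 9 was -1.14, and that of all rows tested was -0.017. Without the filter, 8 of the 10 were called, 6 lower and 2 higher, while 30.5% of 19730 rows were called, 16.0% lower and 14.6% higher. A bulk measurement cannot tell fewer cells of a type from less RNA per cell, and this applies to every value below.

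**Figure D1:**
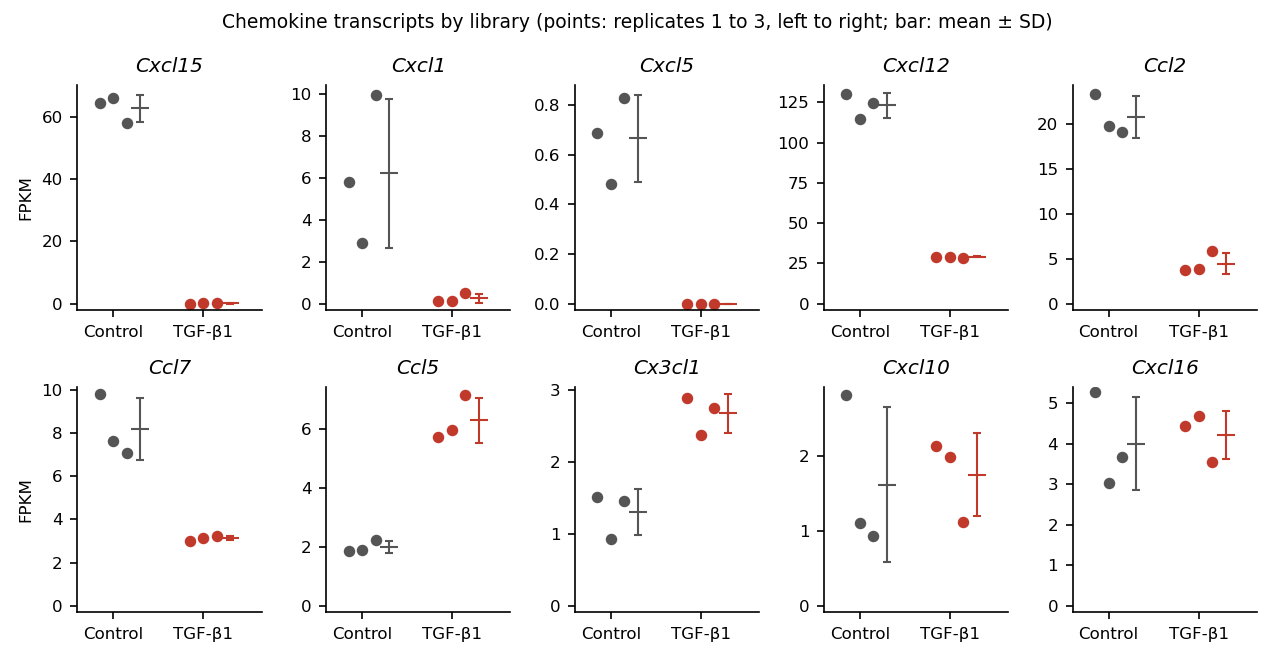
FPKM of each chemokine (vertical axes, linear and starting at 0, 1 scale per gene) in 3 Control and 3 TGF-β1 libraries, with points for replicates 1 to 3 and bars for the mean ± SD. Cxcl15, Cxcl1, Cxcl5, Cxcl12, Ccl2 and Ccl7 were lower in every TGF-β1 library than in any Control library, Ccl5 and Cx3cl1 were higher, and Cxcl10 and Cxcl16 overlapped.

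Cxcl15, Cxcl1 and Cxcl5 lie on chromosome 5 in a cluster of CXC ligand genes that are all read from the plus strand. Among rows of the table, the order along the chromosome was Cxcl5, Ppbp, Pf4, Cxcl3, Cxcl15 and Cxcl1, over 134 kb. Windows before the transcript starts of Cxcl5, Cxcl15 and Cxcl1 and of Ppbp, their neighbour, are shown. They can be compared with those of Ccl5, which rose, and Cxcl12, which fell and lies on chromosome 6. Each is the 100 bases upstream of the start of the row's transcript in build mm9, 5′ to 3′ on the strand of the gene. Capitals mark matches to GGNNNTTCC on either strand, a core of the NF-kB site.
Cxcl5: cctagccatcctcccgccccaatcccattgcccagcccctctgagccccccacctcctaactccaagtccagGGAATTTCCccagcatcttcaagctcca
Ppbp: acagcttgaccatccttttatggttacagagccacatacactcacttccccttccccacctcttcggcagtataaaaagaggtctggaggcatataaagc
Cxcl15: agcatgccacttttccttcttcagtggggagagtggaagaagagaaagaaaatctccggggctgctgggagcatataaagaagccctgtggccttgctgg
Cxcl1: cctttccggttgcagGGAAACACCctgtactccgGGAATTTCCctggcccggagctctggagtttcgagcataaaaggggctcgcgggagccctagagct
Ccl5: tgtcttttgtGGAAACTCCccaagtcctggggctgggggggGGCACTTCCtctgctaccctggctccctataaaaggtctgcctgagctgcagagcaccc
Cxcl12: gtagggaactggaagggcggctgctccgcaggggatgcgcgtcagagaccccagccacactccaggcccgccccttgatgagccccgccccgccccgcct
The windows are chr5:91188225-91188324 (plus strand) for Cxcl5, chr5:91197444-91197543 (plus) for Ppbp, chr5:91223460-91223559 (plus) for Cxcl15, chr5:91320167-91320266 (plus) for Cxcl1, chr11:83344021-83344120 (minus) for Ccl5 and chr6:117118453-117118552 (plus) for Cxcl12.

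Motifs were counted over the 250 bases upstream of each start, and the share of 15987 such windows of protein-coding rows that held the same motif was taken as background. GGNNNTTCC was found on either strand in 7 of the 10 chemokine windows (Cxcl1, Cxcl5, Cxcl10, Cxcl16, Ccl2, Ccl7 and Ccl5) and in 17.2% of all windows. Cxcl15, Cxcl12 and Cx3cl1 had no match, nor did Ppbp and Pf4. The Cx3cl1 window lies before the start of a non-coding transcript, and windows before its other annotated transcripts were not read. The same 9 letters, GGAATTTCC, which match on both strands, were found at -66 to -58 from the start in Cxcl1, at -28 to -20 in Cxcl5 and at -74 to -66 in Cxcl3. Cxcl1 and Cxcl5 fell, as did Cxcl15 with no match, while Ccl5 with 2 matches (-90 to -82 and -59 to -51) rose. An interferon response core, GAAANNGAA, was found in 1 of 10 windows, that of Cxcl10, against 6.84% of all windows. An AP-1 core, TGANTCA, was found in those of Cxcl10 and Ccl7 (4.94% of all), the short SMAD box CAGAC in 3 of 10 (40.8% of all) and TATAAA on the coding strand in those of Cxcl15, Ccl7 and Ccl5 (5.25% of all). No matches of different motifs overlapped in the chemokine windows. A match describes these letters only.

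Cxcl15 (lungkine, a neutrophil attractant) went from the second highest chemokine of the 10 to at most about 1 fragment per library. It was at 64.4, 65.8 and 57.8 FPKM in Control replicates 1 to 3, and at 0, 0.0513 and 0.0479 FPKM in TGF-β1 replicates 1 to 3. At this depth those values stood for about 1356, 1381 and 1181 fragments in Control and for 0, 1 and 1 with TGF-β1. The groups lay far apart, and the Control libraries stayed within a narrow range of each other. The group means were 62.7 ± 4.27 and 0.0331 ± 0.0287 FPKM (SD, n = 3), a change of -5.94 (SE 0.0874, 95% interval -6.16 to -5.73, limma adjusted p 8.73e-07). The size depends on the constant added before the logarithm, since with 0.1 in place of 1 it was -8.90. Cxcl15 (mm9, chr5:91223560-91232093) overlaps AC105995.1, a short gene read from the minus strand, and whether the FPKM estimate used strand is not stated.

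Cxcl1 (KC, a neutrophil attractant induced in inflammation) was at 5.83, 2.87 and 9.97 FPKM in Control and at 0.121, 0.131 and 0.489 FPKM with TGF-β1. Relative to their mean, the Control libraries differed among themselves more than those of any other called chemokine of the 10. The lowest of them still lay above every TGF-β1 library. The TGF-β1 values stood for 1, 1 and 4 fragments, against 48, 24 and 80 in Control. The mean fell from 6.22 ± 3.56 to 0.247 ± 0.210 FPKM (SD, n = 3), a change of -2.42 (SE 0.375, limma adjusted p 2.79e-03). With 0.1 added in place of 1 the change was -4.17. Cxcl1 lies at chr5:91320267-91322141.

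Cxcl5 (LIX, another ligand of Cxcr2) was the lowest of the 10 and did not pass the filter. It was at 0.688, 0.481 and 0.828 FPKM in Control and was listed at 0 in each TGF-β1 library, so the groups did not overlap and no fold is given. In the fit without the filter its change was -0.73 (SE 0.0857, limma adjusted p 1.75e-03), and -2.91 with 0.1 added in place of 1, a setting chosen after the data were seen. Cxcl5 lies at chr5:91188325-91190651.

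Of the other 3 rows of the cluster, Ppbp and Pf4 fell and Cxcl3 was not called. Ppbp (platelet basic protein, the precursor of a Cxcr2 ligand) was at 125, 125 and 92.3 FPKM in Control, higher than Cxcl15 in each library, and at 2.90, 4.27 and 4.61 FPKM with TGF-β1. Its mean fell from 114 ± 19.0 to 3.93 ± 0.907 FPKM, 29.1-fold lower (change -4.55, SE 0.185, limma adjusted p 1.95e-05). Unlike Cxcl15, it stayed measurable in each TGF-β1 library, at 28, 38 and 43 fragments. Pf4 (platelet factor 4) was at 1.15, 0.928 and 0.719 FPKM in Control, which is 5, 4 and 3 fragments, and was listed at 0 with TGF-β1 (change -0.94 without the filter, limma adjusted p 8.50e-04). Cxcl3 was at 0.222, 0 and 0.229 FPKM in Control, or 2, 0 and 2 fragments, and at a listed 0 with TGF-β1, and it was not called (limma adjusted p 0.150). The 2 genes on either side of the cluster were looked up after these values were seen. Rassf6, on the Cxcl5 side, was at 0.641 ± 0.252 FPKM in Control and 0.0706 ± 0.0787 FPKM with TGF-β1 and was called lower without the filter (change -0.61, limma adjusted p 0.0158). Mthfd2l, on the Cxcl1 side, was at 8.90 ± 0.526 and 9.38 ± 1.19 FPKM and was not called (change 0.063, 95% interval -0.20 to 0.32, limma adjusted p 0.656).

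**Figure D2:**
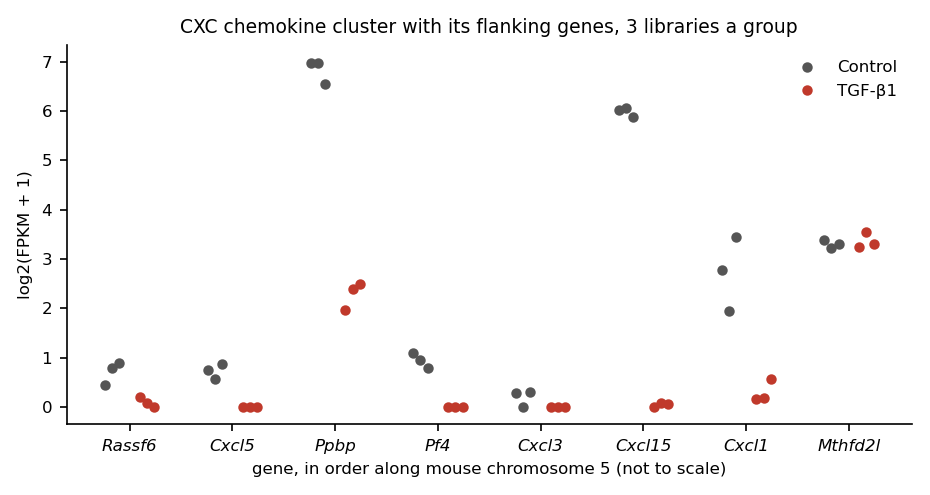
log2(FPKM + 1) (vertical axis) of the CXC cluster on mouse chromosome 5 and of the genes beside it, in their order on the chromosome (not to scale), with 3 points each for Control and TGF-β1. Ppbp and Cxcl15 were the high genes of the cluster in Control and both lay lower in every TGF-β1 library, while the groups of Mthfd2l overlapped.

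Cxcl12 (stromal cell-derived factor 1, the ligand of Cxcr4 that retains and recruits leukocytes and progenitor cells) was the highest of the 10 chemokines in both groups. It was at 130, 115 and 124 FPKM in Control and at 29.2, 29.2 and 28.6 FPKM with TGF-β1. The libraries of each group lay close together and the groups were well separated. The mean fell from 123 ± 7.85 to 29.0 ± 0.345 FPKM (SD, n = 3), 4.25-fold lower, a change of -2.05 (SE 0.0761, limma adjusted p 1.47e-05). Cxcl12 (chr6:117118553-117131385) has 4 annotated transcripts, and whether its row holds the gene or only the transcript named is not stated.

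Ccl2 and Ccl7, monocyte attractants that act on Ccr2, lie 8.26 kb apart on chromosome 11. Ccl2 (monocyte chemoattractant protein) was at 23.4, 19.8 and 19.1 FPKM in Control and at 3.71, 3.88 and 5.82 FPKM with TGF-β1. It fell from 20.8 ± 2.30 to 4.47 ± 1.17 FPKM (SD, n = 3), 4.65-fold lower (change -2.01, SE 0.167, limma adjusted p 2.29e-04). The groups did not overlap, with TGF-β1 replicate 3 the highest of the treated libraries. Ccl7 was at 9.81, 7.63 and 7.09 FPKM in Control and at 3.03, 3.13 and 3.22 FPKM with TGF-β1. It fell from 8.18 ± 1.44 to 3.12 ± 0.0949 FPKM, 2.62-fold lower (change -1.14, SE 0.128, limma adjusted p 7.37e-04). Control replicate 1 was the highest library for both genes. Ccl2 (chr11:81849073-81850955) overlaps Gm17268 on the opposite strand, and Ccl7 lies at chr11:81859214-81861027.

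Ccl5 and Cx3cl1 rose. Ccl5 (RANTES, which attracts T cells and monocytes) lies 1.48 Mb from Ccl7 on chromosome 11 (chr11:83339280-83344020, minus strand). It was at 1.86, 1.88 and 2.23 FPKM in Control and at 5.74, 5.99 and 7.18 FPKM with TGF-β1, with replicate 3 the highest in both groups. It rose from 1.99 ± 0.206 to 6.30 ± 0.770 FPKM (SD, n = 3), 3.17-fold higher (change 1.29, SE 0.117, limma adjusted p 3.16e-04). For the length of the transcript in its row, these levels stood for about 6.76 to 7.87 fragments in Control and 19.9 to 25.5 with TGF-β1. Cx3cl1 (fractalkine, a membrane-anchored ligand of Cx3cr1) was at 1.51, 0.931 and 1.46 FPKM in Control and at 2.90, 2.38 and 2.76 FPKM with TGF-β1. All TGF-β1 libraries lay above all Control libraries. Its mean rose from 1.30 ± 0.322 to 2.68 ± 0.269 FPKM, 2.06-fold higher (change 0.68, SE 0.146, 95% interval 0.33 to 1.04, limma adjusted p 9.70e-03). The transcript identifier of the Cx3cl1 row (gene at chr8:97295909-97306323) is that of a non-coding transcript of 657 nt, while the longest of the 4 annotated transcripts has 3311 nt, so its level relative to other genes is uncertain.

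Cxcl10 and Cxcl16 were not called, and their groups overlapped. Cxcl10 (an interferon-induced attractant of T cells) was at 2.81, 1.11 and 0.933 FPKM in Control and at 2.14, 1.99 and 1.12 FPKM with TGF-β1. Control replicate 1 was its highest library, and the means were 1.62 ± 1.04 and 1.75 ± 0.552 FPKM (change 0.12, SE 0.301, 95% interval -0.61 to 0.85, limma adjusted p 0.770). The interval is wide enough to hold a change of the size seen in Cx3cl1. Cxcl16 (a membrane-anchored ligand of Cxcr6) was at 5.29, 3.04 and 3.69 FPKM in Control and at 4.44, 4.68 and 3.54 FPKM with TGF-β1. Its means were 4.0 ± 1.16 and 4.22 ± 0.597 FPKM (change 0.079, SE 0.187, 95% interval -0.37 to 0.53, limma adjusted p 0.753). The sign of both changes depended on the libraries used, and that of Cxcl16 also on the scaling. Cxcl10 (chr5:92775664-92777915, minus strand) lies 1.45 Mb beyond Cxcl1 on chromosome 5 and overlaps Art3, and Cxcl16 (chr11:70267485-70273486, minus strand) overlaps Zmynd15, both on the opposite strand.

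The order of the levels differed between the groups. In Control it was Cxcl12, Cxcl15, Ccl2, Ccl7, Cxcl1, Cxcl16, Ccl5, Cxcl10, Cx3cl1 and Cxcl5 from high to low. Library ranges of neighbours overlapped from Ccl7 through Cxcl1 to Cxcl16 and from Ccl5 through Cxcl10 to Cx3cl1, and the other neighbours did not overlap. With TGF-β1 the order was Cxcl12, Ccl5, Ccl2, Cxcl16, Ccl7, Cx3cl1, Cxcl10, Cxcl1, Cxcl15 and Cxcl5. There the ranges overlapped from Ccl5 through Ccl2 to Cxcl16 and between Cxcl15 and Cxcl5. The study ranked changed genes by abundance in 5 equal parts. Here all rows tested, called or not, were split into 5 equal parts, so these ranks refer to another set of genes. From Control to TGF-β1, Cxcl15 went from rank 5 to 1, Cxcl12 from 5 to 4, Ccl2 from 4 to 2, Ccl7 and Cxcl1 from 2 to 1 and Ccl5 from 1 to 2, and Cx3cl1 stayed in rank 1.

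Of the 31 other chemokine ligands listed, 14 had a row and 4 passed the filter, of which 2 fell and 1 rose, while 23.6% of all rows tested fell and 24.5% rose. Ppbp was the largest change. Ccl27a (a skin chemokine) fell from 42.5 ± 2.20 to 15.2 ± 3.01 FPKM (change -1.44, SE 0.150, limma adjusted p 5.45e-04), but it has 20 annotated transcripts and overlaps Il11ra1, so its level is uncertain. Ccl17, a T cell attractant, was at 1.12, 0 and 0 FPKM in Control and at 3.19, 3.18 and 1.17 FPKM with TGF-β1 (change 1.39, SE 0.399, limma adjusted p 0.0293). Its lowest TGF-β1 library stood for 4 fragments, as did its highest Control library. The call was lost without Control replicate 2 (limma adjusted p 0.0900), Control replicate 3 (0.0852), TGF-β1 replicate 1 (0.0908) or TGF-β1 replicate 2 (0.0844), and with replicates 1 and 3 alone (0.188). Ccl25 was at 11.4 ± 1.32 and 13.5 ± 1.91 FPKM and was not called (change 0.23, limma adjusted p 0.206). It has 8 annotated transcripts, and the identifiers of the Ccl25 and Ccl27a rows are those of non-coding transcripts, so both levels are uncertain. Of the 10 ligands with a row under the filter, 2 were called without it, Pf4 and Ccl28, both lower. Over all rows, those above the filter included, 30.5% were called without the filter and 16.0% were lower. The share among rows under the filter alone was not computed. Ccl28 was at 0.361 ± 0.0733 FPKM in Control and 0.177 ± 0.00826 FPKM with TGF-β1 (limma adjusted p 0.0406), and with 0.1 added in place of 1 it was not called (0.0925).

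The summed level of the 24 ligand rows was 374 to 433 FPKM in Control and 85.9 to 91.0 FPKM with TGF-β1. The means were 402 ± 29.9 and 88.1 ± 2.67 FPKM (SD, n = 3), and the groups did not overlap. In Control the chromosome 5 cluster gave 43.2% to 49.1% of the sum and Cxcl12 28.9% to 33.2%. With TGF-β1 the cluster gave 3.45% to 5.65%, while Cxcl12 gave 31.4% to 34.0%, a range that overlapped that of Control. Ccl2 and Ccl7 together gave 6.91% to 7.67% in Control and 7.71% to 9.92% with TGF-β1. Ccl25 and Ccl27a together gave 13.1% to 13.9% in Control and 30.1% to 34.9% with TGF-β1. This share rests on the uncertain levels of both rows. The 13 rows outside these groups and outside Ccl25 and Ccl27a, Ccl5 and Cx3cl1 among them, summed to 10.8 ± 3.57 FPKM in Control and 18.6 ± 1.79 FPKM with TGF-β1. No test was run on these sums.

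**Figure D3:**
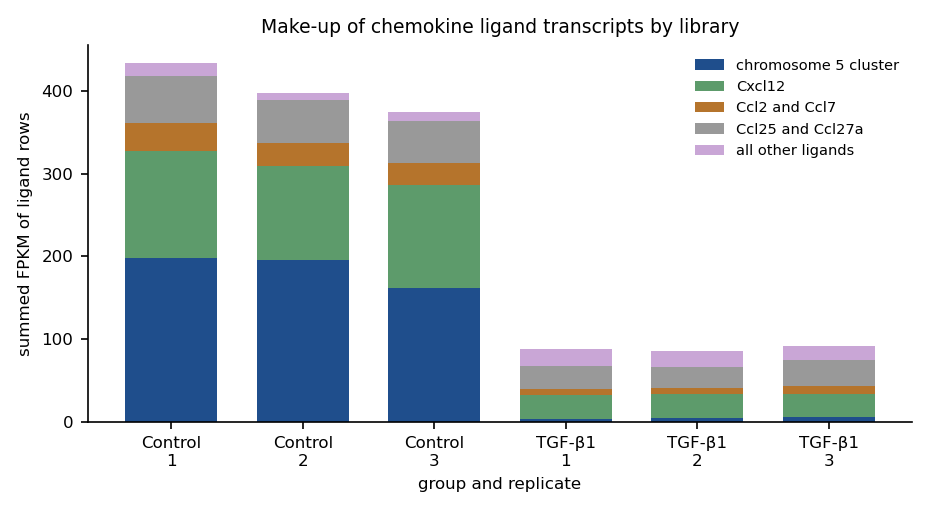
Summed FPKM of the 24 chemokine ligand rows in each library (stacked bars from 0), split into the chromosome 5 cluster of 6 genes, Cxcl12, Ccl2 with Ccl7, Ccl25 with Ccl27a, and the other 13 rows. The sum was 374 to 433 FPKM in the Control libraries and 85.9 to 91.0 FPKM in the TGF-β1 libraries, and the cluster was the largest portion in every Control library.

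Most chemokine receptors with a row were at low levels in these cells. Of 24 receptor genes, 14 had a row and 1 passed the filter. This was Cxcr2, the receptor of Cxcl1, Cxcl5 and the Ppbp product, at 2.65, 2.94 and 2.52 FPKM in Control and at 1.16, 1.50 and 0.977 FPKM with TGF-β1. It fell from 2.70 ± 0.214 to 1.21 ± 0.264 FPKM (change -0.75, SE 0.131, limma adjusted p 4.51e-03). Of the 13 receptors under the filter, 2 were called without it, both lower. Over all rows, those above the filter included, 16.0% were lower without the filter. The share among rows under the filter alone was not computed. Cxcr7, a scavenging receptor for Cxcl12, was at 0.955 ± 0.0419 FPKM in Control and 0.307 ± 0.0822 FPKM with TGF-β1 (limma adjusted p 2.80e-03), and Xcr1 was at 0.956 ± 0.377 and 0.319 ± 0.0919 FPKM (limma adjusted p 0.0400). Cxcr4, the signalling receptor of Cxcl12, was listed at 0 in 5 of 6 libraries. Of the receptors of Ccl2 and Cx3cl1, Ccr2 reached at most 0.0326 FPKM in any library and Cx3cr1 was at 0.172 ± 0.103 and 0.109 ± 0.103 FPKM (limma adjusted p 0.566). Cxcr6, the receptor of Cxcl16, was listed at 0 in Control and was at 0.161, 0.642 and 0.218 FPKM with TGF-β1, and it was not called (limma adjusted p 0.0674), though it was with 0.1 added in place of 1 (0.0151).

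Of 8 proteases that release or trim chemokines, 7 had a row and 4 passed the filter, of which 3 rose and 0 fell, while 24.5% of all rows tested rose and 23.6% fell. Mmp14, a membrane-bound metalloproteinase that cuts Cxcl12, rose from 142 ± 12.3 to 328 ± 2.33 FPKM (change 1.20, SE 0.0887, limma adjusted p 1.53e-04). Mmp2, which cuts Cxcl12 and Ccl7, rose from 412 ± 47.4 to 579 ± 35.0 FPKM (change 0.50, SE 0.113, limma adjusted p 0.0125), a call lost when libraries were rescaled to a common sum of protein-coding rows (0.0664). Adam17, a sheddase of Cx3cl1, was at 10.5 ± 1.61 and 15.5 ± 2.61 FPKM (change 0.53, limma adjusted p 0.0330), and its call was lost in 7 of 14 alternative fits. Among these were the fits without Control replicate 2 (limma adjusted p 0.102), Control replicate 3 (0.0898), TGF-β1 replicate 1 (0.106) or TGF-β1 replicate 2 (0.0905), and that with replicates 1 and 3 alone (0.199). Adam10, the main sheddase of Cxcl16 and Cx3cl1 in unstimulated cells, was at 50.7 ± 4.41 and 45.8 ± 1.10 FPKM and was not called (change -0.14, limma adjusted p 0.216). Every TGF-β1 library lay below every Control library, and Adam10 was called lower after rescaling to protein-coding rows (change -0.33, limma adjusted p 0.0127). The identifier of its row is that of a transcript annotated for nonsense-mediated decay (2720 nt, the longest having 4593 nt), so its level is uncertain. Under the filter, Dpp4, a cell-surface enzyme that trims and inactivates Cxcl12, was at 0.840, 0.769 and 1.97 FPKM in Control and at a listed 0 after TGF-β1 (change -1.09, limma adjusted p 0.0102). Mmp9 was listed at 0 in Control and was at 0.716 ± 0.217 FPKM with TGF-β1 (limma adjusted p 2.18e-03). The identifier of the Mmp9 row is that of a transcript of 416 nt, while the longest of the 4 annotated has 3175 nt. At the shorter length such values rest on few fragments, so the level of Mmp9 is uncertain. Ctsk was at 0.307 ± 0.0779 and 0.712 ± 0.188 FPKM (limma adjusted p 0.0371, or 0.0633 with 0.1 added in place of 1).

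**Figure D4:**
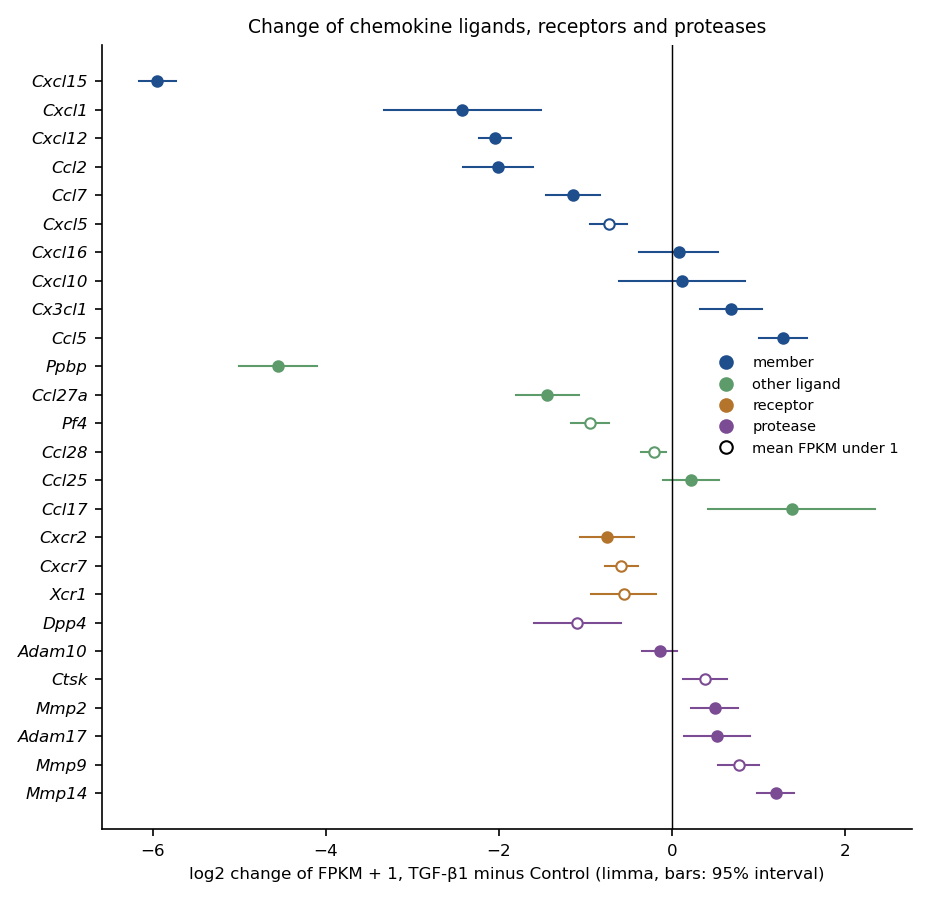
Change of log2(FPKM + 1), TGF-β1 minus Control, with 95% intervals from limma (horizontal axis). Shown are the 10 chemokines and the other ligands, receptors and proteases that passed the filter on low values or were called without it. Filled points passed the filter on low values and open points did not. Cxcl15 and Ppbp lie farthest to the left, at -5.94 and -4.55, and the intervals of Cxcl10, Cxcl16, Ccl25 and Adam10 include 0.

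Of 23 regulators of chemokine transcription, 22 had a row, 21 passed the filter and 12 were called, 9 lower and 3 higher. Over all rows tested 48.1% were called, 23.6% lower and 24.5% higher. Leaving out 1 library, 9 to 11 of the regulators were called, and 8 were called with replicates 1 and 3 alone. Tnfaip3 (A20, an inhibitor of NF-kB signalling and itself an NF-kB target) had the largest change and rose from 1.96 ± 0.440 to 17.0 ± 1.60 FPKM (change 2.61, SE 0.135, limma adjusted p 4.37e-05). Bcl3 and Nfkbiz, nuclear IkB proteins that modify NF-kB transcription, fell from 13.0 ± 1.34 to 2.86 ± 1.03 FPKM (change -1.88, limma adjusted p 5.56e-04) and from 27.6 ± 0.778 to 11.7 ± 0.779 FPKM (change -1.17, limma adjusted p 1.13e-04). Of the interferon regulatory factors, Irf3 fell from 84.5 ± 8.75 to 49.5 ± 4.36 FPKM (change -0.76, limma adjusted p 1.95e-03) and Irf1 rose from 13.7 ± 3.04 to 23.1 ± 2.69 FPKM (change 0.73, limma adjusted p 0.0121). Nfkbie, an inhibitor that holds NF-kB in the cytoplasm, was at 5.21 ± 0.457 and 3.10 ± 0.751 FPKM (change -0.61, limma adjusted p 0.0173). Its call was lost without Control replicate 1 (0.0526), Control replicate 2 (0.0589) or TGF-β1 replicate 3 (0.0578), and with replicates 1 and 3 alone (0.108). Rel, under the filter, was called higher without it at 0.187 ± 0.0382 and 0.456 ± 0.122 FPKM (limma adjusted p 0.0329), but not with 0.1 added in place of 1 (0.0568).

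Markers of other cells that make chemokines were examined beside these values. For comparison, 48.1% of all rows tested were called, 23.6% lower and 24.5% higher. Without the filter 30.5% of all rows were called, 16.0% lower and 14.6% higher. The 6 leukocyte marker rows summed to 8.58 to 14.2 FPKM in Control and 3.79 to 7.45 FPKM with TGF-β1. Csf1r, at 6.27 ± 0.979 and 0.411 ± 0.156 FPKM (change -2.36, limma adjusted p 8.56e-05), was 1 of 3 rows that passed the filter and the only marker of the 6 called, and without it the sums overlapped, at 3.06 to 7.24 and 3.31 to 7.22 FPKM. The other leukocyte markers that passed the filter were present in both groups and were not called. Fcer1g was at 2.87 ± 2.22 and 3.01 ± 1.54 FPKM (limma adjusted p 0.791), and Cd68 at 2.79 ± 0.836 and 2.22 ± 0.448 FPKM (0.393). Ptprc, carried by all leukocytes, was listed at 0 in 4 of 6 libraries, and Lyz2 and Itgam had group means of at most 0.120 FPKM. The 6 endothelial rows summed to 0.743 to 0.969 and 0.440 to 1.14 FPKM, with Cdh5 and Kdr listed at 0 in every Control library and Vwf called lower (limma adjusted p 0.0498, or 0.101 with 0.1 added in place of 1). The 5 epithelial rows summed to 114 to 146 FPKM in Control and 8.44 to 9.59 FPKM with TGF-β1, nearly all of it Cdh16, a kidney tubule cadherin, which fell from 130 ± 16.1 to 6.30 ± 0.564 FPKM (limma adjusted p 6.13e-06). Without Cdh16 the epithelial sums were 0.322 to 0.889 and 2.69 to 2.81 FPKM, Krt18 and Krt19 were called higher (limma adjusted p 1.43e-03 and 5.63e-03), and Cdh1 and Krt8 had means of at most 0.0765 FPKM. The 5 podocyte rows summed to 19.7 to 24.9 and 12.6 to 13.7 FPKM, with Wt1, Synpo and Podxl called lower and Nphs1 at means of at most 0.222 FPKM. The Podxl call was lost without Control replicate 2 (limma adjusted p 0.0522), TGF-β1 replicate 1 (0.0572) or TGF-β1 replicate 3 (0.0540), and the Wt1 call with replicates 1 and 3 alone (0.0944). The part of these cell types in the chemokine changes was not tested.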

How the data were processed

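RNA was sequenced from 3 Control and 3 TGF-β1-treated samples of mouse primary mesangial cells. The authors' pipeline was a read-quality filter, TopHat alignment to mm9 (2.0.11 in the submitters' processing notes, another version in the study's methods) and Cufflinks for FPKM. The deposited values are FPKM in 6 columns, no scaling between libraries being stated, and rows are named by transcript identifier and symbol. Groups and replicate numbers came from the labels. The study's count model (DESeq) was not run, because the table holds no counts.

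Of 19730 rows, 19699 were found by transcript identifier in the mm9 annotation (GENCODE M1), and 48 symbols had more than 1 row. Depth was recovered from 1513 single-transcript genes with FPKM under 0.6, assuming fragments of 200 nt. Their values were whole fragments within 0.1 in 99.5% to 99.9% of cases per library, against 33.8% to 36.7% of jittered values. Fragment counts given are approximate.

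limma 3.58.1 (R 4.3.3) was fitted with lmFit and eBayes, using the trend option, to log2(FPKM + 1) of all rows with a mean of at least 1 FPKM, and two-sided p-values were adjusted by Benjamini-Hochberg. Rows under the filter that are named came from the same fit without it. Scripts were tested on simulated data. Promoter windows were read from the mm9 genome. Tables and plots were made in Python 3.11.15 (pandas 2.3.3, numpy 2.4.6, matplotlib 3.10.9).

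The members and gene lists were chosen with earlier results of these data known. Named were all 10 chemokines, their cluster neighbours, every other ligand, receptor and protease with a mean of at least 1 FPKM or called below it, up to 6 called regulators and up to 3 called markers per list by size of change, and defining markers at 0. The receptors Ccr2, Cxcr6 and Cx3cr1, the genes beside the cluster, Rel and low or uncalled markers were added after their values were seen. Cxcr7 is the older symbol of Ackr3. Some listed genes are counted but not reported singly here. There were 14 alternative settings, and 1 more was added after the data were seen.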

Additional observations from a re-analysis of the deposited data

How the results depend on the processing

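The 7 called chemokines kept their direction and their call in every alternative in which they were tested. These were the other constant and filters, 2 rescalings, a replicate block, a replicate 2 batch term, replicates 1 and 3 alone, and 6 fits that left out 1 library each. Cx3cl1 and Cxcl10 were not tested at a filter of 3 FPKM, and for genes under the filter of 1 FPKM, Cxcl5 among them, another added constant was the only alternative run. The adjusted p of Cx3cl1 was at most 0.0367. Leaving out 1 library, 7 chemokines were called each time, 4419 to 5446 of all rows, and 14 to 17 genes of the ligand, receptor, protease and regulator lists, of which 19 were called with all libraries and 13 with replicates 1 and 3 alone. Without the filter 6026 rows were called. Rescaling libraries to 1 sum over protein-coding rows (300 nt or longer) moved the median change of all rows from -0.017 to -0.19 and the calls from 2911 higher and 2810 lower to 2015 higher and 3927 lower. The called chemokines moved with that shift, Cxcl12 to -2.24, Ccl2 to -2.18, Ccl7 to -1.30, Ccl5 to 1.14 and Cx3cl1 to 0.56, and kept their calls.

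Replicate numbers are shared between the groups. Same-numbered libraries deviated together with correlations of 0.0921, 0.232 and 0.0853. Control replicate 1 correlated best with TGF-β1 replicate 3 (0.117), so these values cannot tell whether the numbers pair the samples. With a replicate block 5391 rows, 7 chemokines and 17 list genes were called. With replicate 2 as a batch term 5947 rows were called, and with replicates 1 and 3 alone 4195.

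Genes without a call changed sign in some settings, and the cause was not tested. With replicates 1 and 3 alone Cxcl10 was -0.074 and Cxcl16 -0.13. Rescaling to protein-coding rows gave -0.076 for Cxcl16 and -0.15 for Nfkb2. Leaving out 1 library gave -0.066 to 0.42 for Cxcl10 (negative without Control replicate 2 or 3), -0.063 to 0.26 for Cxcl16 (negative without Control replicate 2), -0.10 to 0.21 for Nfkb2 and -0.42 to 0.60 for Fcer1g. Pecam1 was -0.043 without the filter and with 0.1 added. Depth limits the low members: Cxcl5, Ccl5 and Cx3cl1 rested on few fragments, and 3 libraries per group limit the precision of changes such as those of Cxcl10 and Cxcl16.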
